A study of Mus musculus with 74 samples.

Results

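Line 264, a CRISPR-edited derivative of the mouse macrophage-like cell line RAW264.7, was compared with RAW264.7 itself after 60 min of lipopolysaccharide (LPS), gene by gene. Each line had 2 RNA libraries at that time, so the comparison rests on 4 libraries out of the 74 samples of the series. Of 24851 genes listed, 17301 reached a mean of at least 1 normalized read over the 12 libraries tabulated together and were tested. The same pair of lines was also sequenced unstimulated and at 120 min (2 libraries per line and time), and these libraries were used to ask whether a difference seen at 60 min was there at the other times. The edited lines of the study are either hypomorphs or double knockouts of the H3.3 genes H3f3a and H3f3b; to which kind line 264 belongs is not stated in the sample labels. No clone history, passage or LPS dose is given for the cell lines in the sources used here. The tissue field of these libraries names bone marrow macrophages while the source field names RAW264.7, and they were treated as the cell line. Nothing in the labels says that the 2 libraries of a group came from separate cultures, so the p-values reflect only how far such libraries scatter, which may be technical.

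H3.3 is a replacement form of histone H3 that is put into chromatin outside DNA replication, chiefly at active genes, enhancers and some repeats. In mammals a pair of genes, H3f3a and H3f3b, encodes the same protein. LPS, a component of bacterial outer membranes, is sensed by macrophages through CD14 and TLR4. Within an hour it raises immediate early genes, cytokines, chemokines and the inhibitors that later dampen the response.

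The 60 min libraries differed in depth: RAW264.7 had 23.1 and 13.1 M reads and line 264 had 47.8 and 40.1 M. H3f3a stood at 2579 and 2445 normalized reads in RAW264.7 and at 172 and 226 in line 264, a 12.6-fold difference (limma log2 difference -3.66 ± 0.22, adjusted p = 4.8e-06). H3f3b stood at 29823 and 30051 against 14080 and 14008 (-1.09 ± 0.13, limma adjusted p = 0.00038). Both lines expressed macrophage markers: none of the 15 was at 0 in either, and their summed level was 448503 to 566866 in RAW264.7 and 264302 to 281509 in line 264. Lyz2 made up most of that gap, and without it the sums were 246495 to 272771 in RAW264.7 and 218036 to 226782 in line 264. Of the 15, 5 were lower and 2 higher (1 to 4 and 1 without 1 library). In bulk RNA, fewer cells of a type and less RNA per cell cannot be told apart. Csf1r, the receptor for the macrophage growth factor, stood at 68216 and 62875 against 53410 and 60700 and did not pass the test. The markers of B cells, mast cells and fibroblasts summed to at most 32.7 in any of the 4 libraries, those of dendritic cells to 97.7 to 127 and those of T and NK cells to 118 to 159, and none of these lists had a called gene. Among the 7 neutrophil markers listed, Ly6g and Mmp8 were at 0 in both lines, and S100a9 and Cxcr2 were at 0 in RAW264.7 only. The higher sum in line 264 (2034 to 2072, against 168 to 195) was nearly all Csf3r, the receptor for granulocyte colony-stimulating factor. Csf3r was the only gene called, higher in line 264, of the 3 tested.

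At 60 min, 1463 genes were higher in line 264 and 1177 were lower (limma on log2 of the value plus 1, Benjamini-Hochberg adjusted p below 0.05, here named a call). That is 8.46% and 6.80% of the genes tested. The replicate ranges of the 2 lines did not overlap for any called gene, as was the case for 55.9% of all genes tested. The median log2 difference was 1.39 over the higher genes and -1.50 over the lower ones. Differences above 8-fold were found for 320 higher and 308 lower genes, and above 64-fold for 49 and 73. With the replicate number as a block the counts were 2475 higher and 2173 lower. Leaving out any 1 of the 4 libraries gave 807 to 896 higher and 591 to 719 lower genes. The authors' deposited table lists 266 higher and 301 lower genes for the same comparison, none with an absolute log2 fold change under 1.4, and all 567 were among the calls made here.

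The largest losses in line 264 included genes of lipid handling and of macrophage surface and secreted proteins. Cd36, a scavenger receptor and fatty acid transporter (mm10 chromosome 5, bases 17781690 to 17888959), gave 22021 and 15036 normalized reads in RAW264.7 and 1.39 and 0.864 in line 264. From the 3 reads behind the latter values, Cd36 RNA was 16879-fold lower, with a 95% counting interval of 5775 to 81854. Lyz1, which encodes lysozyme (chromosome 10, 117287795 to 117292868), stood at 184047 and 81605 against 39.6 and 34.6 (3224-fold lower, limma log2 difference -11.65 ± 0.46, adjusted p = 4.1e-07). Its near-identical neighbour Lyz2 stood at 294095 and 202009 against 46266 and 54727, and reads of this pair may have been divided between them. Lpl, which encodes lipoprotein lipase, stood at 59650 and 37185 against 29.2 and 43.2 (1289-fold lower, limma adjusted p = 7.3e-07). Lipg, another lipase gene, stood at 1406 and 716 against 0 in both line 264 libraries, at least 1001-fold lower when set against a floor of 3 reads over the group. The immediate early kinase gene Plk2 stood at 7308 and 10511 against 1.39 and 7.78, and the transcription factor gene Zfhx4 at 4076 and 5838 against 3.48 and 0.864. The protocadherin gene Pcdh7 stood at 7872 and 5088 against 1.39 and 0.864. Ppic, Pvrl3, Gda and Ica1 were at 533 or more normalized reads in both RAW264.7 libraries and at most 1.39 in line 264. Cd63-ps, annotated as a pseudogene of the tetraspanin gene Cd63, completed the 12 largest losses; Cd63 itself stood at 4200 and 3226 against 8.34 and 6.05, and reads of such copies may be shared.

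The largest gains were of a more mixed kind. Itih5, which encodes a hyaluronan-binding matrix protein (mm10 chromosome 2, bases 10153536 to 10256529), was at 0 in both RAW264.7 libraries and at 2515 and 2974 in line 264, at least 954-fold higher. Mylk, which encodes myosin light chain kinase (chromosome 16, 34745199 to 35002436), was also at 0 in RAW264.7 and stood at 1625 and 1863 in line 264, at least 607-fold higher. Svopl, a predicted transporter gene, stood at 2.97 and 2.64 against 1890 and 2532, and Scn11a, a sodium channel gene, at 8.91 and 23.8 against 3216 and 3550. Klhl30 stood at 5.94 and 13.2 against 2588 and 2191. Tlr5, the receptor for bacterial flagellin (chromosome 1, 182954752 to 182976044), was at 0 in RAW264.7 and at 261 and 216 in line 264, at least 84.5-fold higher. Batf, a transcription factor of the AP-1 family, stood at 0 and 2.64 against 512 and 405. Mlxipl, a glucose-responsive transcription factor, stood at 0 and 2.64 against 380 and 656. Afap1, Tuba8, Zfhx3 and P2ry14 were at most 4.45 in RAW264.7 and above 130 in both line 264 libraries. All 24 of these genes kept their call without each library in turn, with the block and with edgeR.

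**Figure D1:**
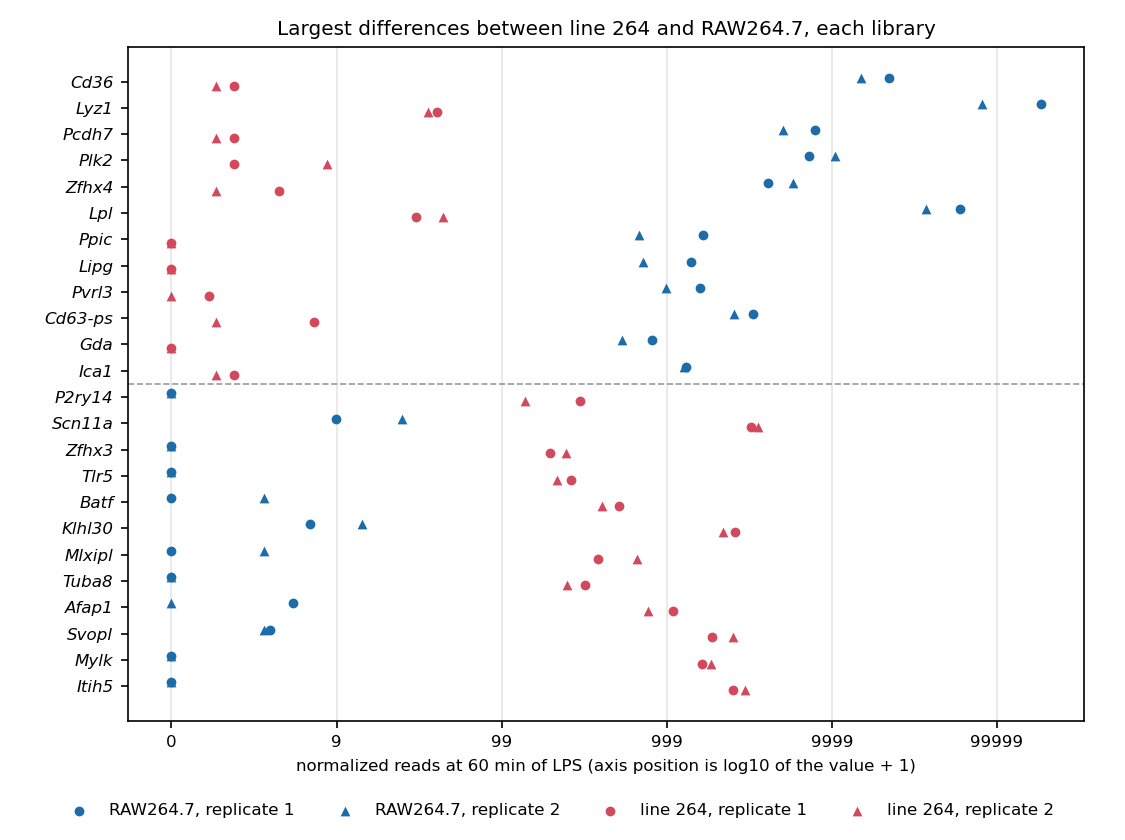
Normalized reads at 60 min of LPS in each of the 4 libraries (log10 of the value plus 1 on the horizontal axis, labelled in normalized reads) for the 12 largest losses in line 264, above the dashed line, and the 12 largest gains, below it. Genes were picked among calls whose replicate ranges lay apart, so none has overlapping lines. The low group sits at or near 0 for most of them.

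A set of genes was close to silent in one of the lines. With at least 50 normalized reads in both libraries of one line and at most 3 reads over the other, 49 genes were nearly silent in line 264 and 46 in RAW264.7. Of the 49, 40 also had at most 3 reads in unstimulated line 264, and 12 stood at 50 or more in both 60 min libraries of line 3205, the other edited line. Of the 46, 28 had at most 3 reads in unstimulated RAW264.7 and 25 stood at 50 or more in line 3205. The line 3205 counts are given without the share of all genes tested at that level, so they are not read as many or few. These sets were not cut at equal levels, as depth differed. At 60 min 1 read stood for 1.48 and 2.64 normalized reads in RAW264.7 and for 0.695 and 0.864 in line 264. Unstimulated it stood for 1.09 and 1.16 against 0.910 and 0.855. The Tfec gene, a relative of the lysosomal regulator Mitf, belonged to the first set with 450 and 481 normalized reads against 0 in both libraries. Line 3205 also had 0 reads of it. In line 3205 Zfhx4 stood at 2292 and 3410, nearer to RAW264.7 than to line 264, and Mylk at 2288 and 2118, nearer to line 264.

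Most line differences at 60 min were present before LPS. Of the 1463 higher genes, 1091 (74.6%) were also higher in the unstimulated libraries, where 7.61% of genes tested were higher, and these were 82.8% of that comparison's higher genes. Of the 1177 lower genes, 806 (68.5%) were also lower there, against 5.57% of genes tested, and were 83.7% of the lower genes of that comparison. At 120 min 1011 of the higher and 740 of the lower genes carried the same call, where 7.33% and 6.13% of genes tested were called. The same call at all 3 times was found for 885 higher and 627 lower genes, all 24 of the largest differences among them. The unstimulated and 120 min libraries are not those of the 60 min comparison, although the fit shared 1 estimate of spread between 0 and 60 min. Opposite calls were few: Rasgef1b, Bhlhe40 and Bcl6 were lower at 60 min and higher unstimulated, and 2 genes higher at 60 min were lower at 120 min, Tnfrsf1b and Jarid2.

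**Figure D2:**
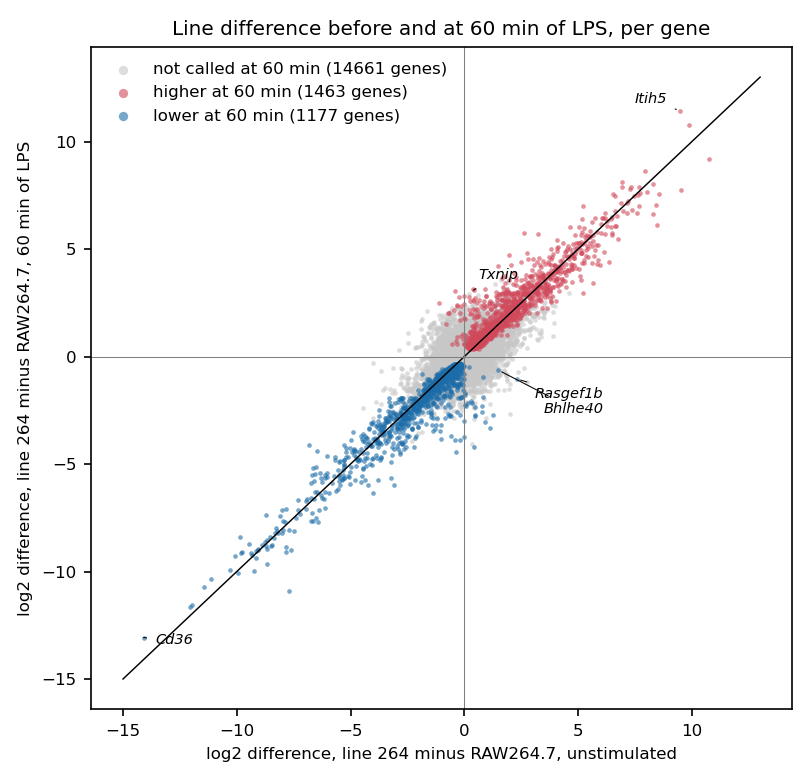
Log2 difference between line 264 and RAW264.7 for each of the 17301 genes, in the unstimulated libraries (horizontal) and at 60 min of LPS (vertical), coloured by the 60 min call, with the line of equal difference. The 1463 higher and 1177 lower genes lie mostly along that line, and Txnip, Rasgef1b and Bhlhe40 lie off it.

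The test of the change itself, whether the line difference changed between 0 and 60 min, called 3 genes (0.0173% of those tested), 1 with a positive (0.00578%) and 2 with a negative (0.0116%) response difference, each with a limma adjusted p of 0.035. Txnip, which encodes an inhibitor of thioredoxin and of glucose uptake, stood at 15315 and 11368 in unstimulated RAW264.7 and at 1539 and 1687 after LPS. In line 264 it stood at 19107 and 16041 before and 15329 and 12330 after, so the response difference was log2 2.68 ± 0.31. Rasgef1b, a gene for a Ras-family exchange factor, went from 1203 and 1163 to 21240 and 14741 in RAW264.7 and from 5150 and 6546 to 7098 and 10431 in line 264 (-3.33 ± 0.38). Bhlhe40, a transcriptional repressor gene, went from 727 and 659 to 1750 and 1909 in RAW264.7 and from 1833 and 2031 to 1005 and 1401 in line 264 (-2.10 ± 0.23). Its before and after values moved in opposite directions in the 2 lines. At an unadjusted limma p below 0.05 there were 373 of 17301 genes, fewer than that threshold passes on average when no gene differs. The block gave 22 calls. Without any 1 of the 8 libraries the count was 0 to 1.

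Classical LPS response genes did not move as a block. Tnf, which encodes tumour necrosis factor, was at 96753 and 102680 normalized reads in RAW264.7 and at 94132 and 103585 in line 264 (log2 difference -0.01 ± 0.38, limma adjusted p = 0.99). Il6 was at 25.2 and 23.8 against 0 and 0.864, which is 64.1-fold lower with a counting interval of 10.5 to 2629 (limma adjusted p = 0.00053). Before LPS Il6 had at most 0.855 in any of the 4 libraries, and at 120 min it reached 1831 and 737 in RAW264.7 and 156 and 31.8 in line 264. Il10, which encodes an anti-inflammatory cytokine, was at 44.5 and 18.5 against 0 and 0.864, 91.3-fold lower with an interval of 15.4 to 3701. It was already lower without LPS (6.53 and 5.79 against 0 in both libraries, limma adjusted p = 0.013). Ccl4, a chemokine gene, stood at 50945 and 43237 against 6951 and 3896 (9.02-fold lower, limma adjusted p = 0.0018). Tnfaip3, which encodes the feedback inhibitor A20, stood at 39218 and 36803 against 16119 and 20933 (2.07-fold lower, limma adjusted p = 0.0051, and 0.051 without line 264 replicate 1).

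For several panel genes the line 264 libraries disagreed with each other. Ifnb1, the interferon beta gene, stood at 977 and 898 in RAW264.7 and at 485 and 32.8 in line 264 (log2 difference -2.87 ± 1.0, limma adjusted p = 0.088). Cxcl10, an interferon-responsive chemokine gene, stood at 26223 and 28124 against 16148 and 4256 (limma adjusted p = 0.054). Both were called without line 264 replicate 1 (limma adjusted p = 0.0026 and 0.0028) and with the block (0.023 and 0.025). Il1b stood at 4228 and 3836 against 1479 and 533 (limma adjusted p = 0.26, and 0.017 with the block). Cxcl2, Csf3, Lif, Ptgs2, Nos2, Nfkbia, Nfkbiz and Egr1 did not pass the test with or without the block, with log2 differences between -0.74 ± 0.27 for Egr1 and 0.45 ± 0.80 for Lif. Fos stood at 3843 and 3733 against 1888 and 5033 at 60 min, whereas unstimulated it stood at 2823 and 1543 in RAW264.7 and 93.7 and 173 in line 264 (limma adjusted p = 0.00024 unstimulated). Its response difference of log2 3.73 did not pass the test (limma adjusted p = 0.19). Setd2, the H3K36 writer gene, and Zmynd11, whose product reads that mark on H3.3, had log2 differences of -0.22 ± 0.10 and 0.08 ± 0.12 and were not called. Chuk, which encodes the kinase IKK-alpha, was slightly higher (3961 and 4267 against 5417 and 5478, limma adjusted p = 0.026). That call was lost without any 1 of the 4 libraries (limma adjusted p = 0.073 to 0.16).

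**Figure D3:**
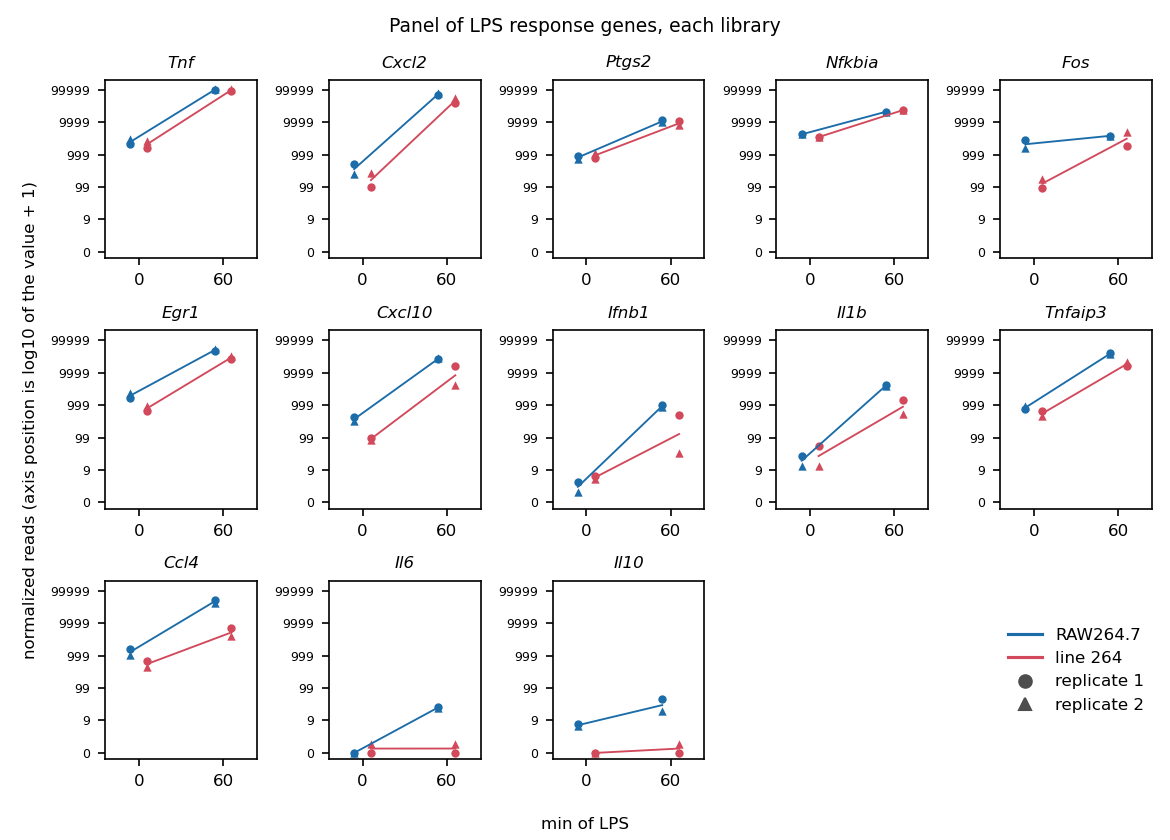
Normalized reads (log10 of the value plus 1 on the vertical axis, labelled in normalized reads) of 13 LPS response genes in each unstimulated and 60 min library of RAW264.7 and line 264, with lines through the mean of the log values. Tnf overlaps between the lines at 60 min, while Ccl4, Il6 and Il10 are lower in both line 264 libraries.

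Genes that LPS raises in primary bone marrow macrophages, taken from the authors' deposited table of those cells at 60 min, were more often lower than higher in line 264. Of 176 tested, 52 were lower (29.5%, against 6.80% of all genes tested) and 15 were higher (8.52%, against 8.46%). Their median log2 difference was -0.67 at 60 min, -0.14 unstimulated and -0.50 at 120 min, where the median of all genes was 0.01, 0.00 and 0.01. The unstimulated counts were 26 lower and 15 higher. With the block there were 78 lower and 20 higher at 60 min, and without 1 library 32 to 42 lower and 7 to 9 higher. The losses were largest for Plk2, for Ptger4, a prostaglandin E2 receptor gene, and for Gpr85 (156 and 66.0 against 0.695 and 0). Dusp1, a phosphatase gene that restrains MAP kinases, was equal before LPS (243 and 200 against 240 and 209). At 60 min it stood at 10528 and 9890 against 1812 and 2571, and its response difference of log2 -2.26 did not pass the test (limma adjusted p = 0.061). The gains included Gem, a GTPase gene, with 419 and 634 against 5557 and 4500. They also included Cd69, an early activation marker (54.9 and 26.4 against 514 and 1003), and Csf2, the GM-CSF gene (26.7 and 29.0 against 402 and 369).

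The primary macrophage table also gives ChIP signal for H3.3 phosphorylated at serine 31 (H3S31ph) at 0 and 60 min of LPS, from 1 library at each time and not from the cell lines. The median 60 min over 0 min signal ratio was 5.14 over the 52 genes lower in line 264 (quartiles 2.47 and 8.13). It was 3.93 over the 109 not called (2.18 and 7.29) and 2.31 over the 15 higher ones (1.76 and 4.32). The ranges overlapped widely, and across the 176 genes Spearman's rho between that ratio and the line difference was -0.12, given as a description since genes of 1 library are not independent replicates. The LPS response of the 3 classes in primary macrophages also differed, with a median log2 fold change in the authors' deposited table of 2.81, 2.5 and 2.31.

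The counts for chosen groups of genes are read here against 8.46% higher and 6.80% lower among all genes tested. Counts with the replicate block are read against 14.3% higher and 12.6% lower in that fit. Genes for sensing LPS and related microbial products leaned towards lower levels, with 12 of 28 lower and 3 higher. In the unstimulated libraries 9 of the 28 were already lower and 3 higher. Tlr2, a receptor for bacterial lipoproteins, stood at 29231 and 32156 against 11381 and 11637 (limma adjusted p = 0.00086). The group also held Clec7a, the beta-glucan receptor dectin-1 (1171 and 1072 against 16.7 and 26.8), and Tlr8 (105 and 135 against 2.09 and 0.864). The LPS receptor gene Tlr4 stood at 1820 and 2178 against 1113 and 1276 (limma adjusted p = 0.0023). Its partner Cd14 stood at 62253 and 52652 against 30071 and 29336 and lost its call without 3 of the 4 libraries (limma adjusted p = 0.065 to 0.10). The 3 higher members were Tlr5, Trem1 (11.9 and 5.28 against 953 and 886) and Trem3 (78.7 and 135 against 3306 and 2871), the latter pair encoding related receptors that amplify such signals. The count of lower members was 6 to 8 without 1 library.

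Cytokine and chemokine genes were more often lower than higher. The share of cytokine genes higher (9.09%) was near that of all genes tested (8.46%). Of 22 inflammatory cytokine genes 6 were lower (10 with the block, 4 to 6 without 1 library) and 2 were higher (1 to 2). Il1rn, which encodes the interleukin-1 receptor antagonist, stood at 2684 and 2825 against 104 and 181 (limma adjusted p = 0.00011), and Il1a at 669 and 784 against 44.5 and 66.5. No chemokine gene of 18 was higher and 4 were lower (8 with the block). Cxcl16, whose product is a membrane-bound chemokine and scavenger receptor, stood at 6995 and 4539 against 6.95 and 12.1 (552-fold lower, limma adjusted p = 6.0e-06). Cxcl14 stood at 518 and 486 against 0 and 0.864, and Ccl9 at 24699 and 16084 against 2831 and 3616. Among 12 chemokine and chemoattractant receptor genes, Cxcr3 (44.5 and 23.8 against 194 and 284) and Cxcr4 (25.2 and 15.8 against 98.7 and 171) were higher. Ccr2, the monocyte receptor for Ccl2, was one of the 5 lower (240 and 309 against 6.95 and 15.6, limma adjusted p = 0.00032), a count that was 2 to 3 without 1 library.

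Immediate early genes, which respond without new protein synthesis, had 13 of 39 lower and 3 higher, 7 to 9 and 1 to 2 without 1 library. Unstimulated, 11 of the 39 were already lower and 2 higher, with Myc, Klf4 and Atf3 among the lower. Beside Plk2 and Dusp1, the genes lower at 60 min included Myc (1510 and 763 against 14.6 and 18.1), Klf4 (993 and 399 against 7.65 and 12.1) and Atf3 (23658 and 20657 against 7633 and 5188). Zfp36l1, which encodes an mRNA decay factor, was higher (612 and 613 against 3632 and 2378, limma adjusted p = 0.00033). Of 39 genes of the NF-kB pathway and its feedback, 7 were lower (14 with the block, 3 to 4 without 1 library) and Chuk alone was higher. Bcl3, an atypical NF-kB inhibitor gene, stood at 554 and 465 against 106 and 98.5, and was as different before LPS (258 and 281 against 42.8 and 59.0). Of 44 interferon-stimulated genes 3 were lower (11 with the block, 1 to 6 without 1 library), with Slfn2 at 18179 and 15868 against 6225 and 5915 (limma adjusted p = 0.00032).

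Genes of clearance and digestion were more often lower than higher in line 264. Of 18 genes for scavenger receptors, lipid uptake and efflux, 8 were lower and none higher, 6 to 7 without 1 library. They included Cd36, Lpl and Msr1, which encodes scavenger receptor A (13335 and 10244 against 16.7 and 84.7, limma adjusted p = 0.00013). Pparg, the nuclear receptor that drives several of these genes, stood at 34.1 and 31.7 against 0 in both libraries, at least 28.8-fold lower. Of 40 lysosomal genes 16 were lower and 3 higher, 5 to 10 and 2 without 1 library. Ctsf stood at 1930 and 1539 against 90.4 and 63.9, and the protease genes Lgmn and Ctsc were 1.70-fold and 1.97-fold lower. In the other direction Ctsh, also a lysosomal protease gene, stood at 321 and 148 against 22596 and 18729 (94.0-fold higher, limma adjusted p = 4.2e-05), and Ctse at 545 and 605 against 5161 and 4688.

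Among osteoclast lineage genes, a fate RAW264.7 cells can take, 6 of 17 were lower and 3 higher, 2 to 7 lower without 1 library. The fusion genes Dcstamp (295 and 190 against 41.7 and 44.1) and Ocstamp (172 and 55.4 against 4.87 and 5.18) were lower. Car2, a carbonic anhydrase gene, was higher at 7185 and 19290 against 94511 and 101107, and so was Itgb3 (11.9 and 2.64 against 793 and 438). Matrix, protease and adhesion genes had 13 of 25 lower and 2 higher, a median log2 difference of -1.13 (-0.65 unstimulated). Leaving out 1 library gave 8 to 10 lower. Itga5, a fibronectin receptor subunit gene, stood at 26519 and 24486 against 3476 and 3483 (7.32-fold lower, limma adjusted p = 1.5e-06), and Sdc1 at 710 and 404 against 2.09 and 7.78. Cd44, the hyaluronan receptor gene, stood at 16096 and 10532 against 4977 and 4733.

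Transcription factor genes of the myeloid lineage were split, with 9 of 31 higher and 8 lower, 5 and 5 to 7 without 1 library. Batf and Runx3 (465 and 388 against 1158 and 1206, limma adjusted p = 5.7e-05) were higher. Lower were Tfec, Zeb2 (9599 and 11464 against 3617 and 4813) and Cebpa (696 and 605 against 330 and 292). Spi1, which encodes the myeloid master regulator PU.1, stood at 13758 and 11636 against 7946 and 7516 and lost its call without 3 of the 4 libraries (limma adjusted p = 0.053 to 0.10).

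Some groups had more higher than lower calls, although not all had a median above 0. Of 24 costimulatory and inhibitory surface genes 7 were higher and 3 lower (7 and 7 with the block), with a median log2 difference of -0.23, and Cd80 stood at 52.0 and 55.4 against 253 and 296 (limma adjusted p = 0.0001). Of the 24 members, 9 lie on chromosomes 1 and 19, the Slamf genes among them. The higher genes Slamf8, Cd48 and Ly9 lie on chromosome 1, while Cd80 lies on chromosome 16. Fc, complement and phagocytic receptor genes had 7 of 24 higher and 4 lower (8 and 7 with the block, 6 and 2 to 3 without 1 library), with a median of -0.13. Itgal, the LFA-1 subunit gene, stood at 750 and 494 against 4870 and 4544, and C3 at 569 and 676 against 8614 and 3782. Purinergic and other G protein-coupled receptor genes had 7 of 29 higher and 3 lower, with a median of 0.22. The cluster of P2ry12 (17.8 and 29.0 against 875 and 629), P2ry13 (4.45 and 5.28 against 343 and 252) and P2ry14 lies within Med12l in the RefSeq annotation. Med12l itself stood at 0 and 2.64 against 111 and 92.4, and whether the counting used strand is not given, so reads of these genes cannot be told apart with certainty. Ptger4 stood at 1683 and 1613 against 7.65 and 6.91 (199-fold lower, limma adjusted p = 6.0e-06).

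Chromatin genes differed in a few members. Of 21 Polycomb and H3K27 genes 6 were higher and none lower, and 2 to 3 were higher without 1 library. Nsd1, an H3K36 methyltransferase gene, was 100-fold lower (459 and 581 against 2.78 and 6.05, limma adjusted p = 0.00017), at 5.29 and 11.8 in line 3205. Atrx, which encodes an H3.3 chaperone subunit, was lower (8650 and 10041 against 5020 and 5022, limma adjusted p = 0.00039), and beside it only the H3.3 genes were lower among 18 H3.3, chaperone and H3 variant genes (6 with the block). Of 23 histone kinase and MAP kinase genes 3 were higher and none lower. Map2k1, the MEK1 gene, stood at 6126 and 5531 against 21345 and 22007, and Rps6ka4, which encodes the histone H3 kinase MSK2, at 1458 and 1529 against 2479 and 2717.

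A few other groups had calls in both directions, and MHC class I genes in 1 direction only. Secondary response genes had 4 of 21 higher and 3 lower, with the histidine decarboxylase gene Hdc at 31.2 and 52.8 against 432 and 371. Lysozyme and granule genes had 3 of 12 higher and 4 lower (1 to 2 and 2 without 1 library), with the protease inhibitor gene Slpi at 69.8 and 169 against 835 and 1275. MHC class II genes had 2 of 10 higher and 1 lower, and MHC class I genes 1 of 18 higher (6 with the block). None of these higher MHC calls was made without 1 library, and edgeR did not call the MHC class II pair. Stress and unfolded protein genes had 2 of 25 higher and 3 lower (0 to 1 and 2 to 3 without 1 library). Of 20 genes for H3K36 and H3K79 methylation 2 were higher (1 to 2 without 1 library) and Nsd1 alone was lower.

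Groups tied to growth and basic metabolism differed in few members, unlike the p53 target and apoptosis genes given after them. No gene of 28 for sterol and fatty acid synthesis was called by limma or edgeR, and 2 were lower with the block. Of 50 cytosolic ribosomal protein genes 1 was higher (0 without 1 library), and of 30 glycolysis and hypoxia genes 1 was higher and 1 lower (5 and 5 with the block). The lower one, Aldoc, stood at 3696 and 3047 against 16.7 and 22.5. Cell cycle genes had 3 of 38 higher (10 with the block, 1 to 2 without 1 library) and 1 lower (0 without 1 library), with the cyclin gene Ccnd2 at 95 and 71.3 against 3792 and 5578 (55.2-fold higher, limma adjusted p = 1.3e-06). Among 28 p53 target and apoptosis genes the death genes Pmaip1 (4813 and 4642 against 555 and 689) and Bcl2l11 (6864 and 6648 against 886 and 1453) were lower. The survival gene Bcl2l1 was higher (806 and 874 against 3343 and 4165, limma adjusted p = 1.5e-05). Mcl1, also a survival gene, was lower (77001 and 68465 against 42143 and 40940, limma adjusted p = 0.0040). In all, 6 of that group were lower (21.4%, against 6.80% of all genes tested) and 2 higher (5 with the block). Without 1 library, 4 to 6 were lower. Bcl2l11 was alike before LPS (1317 and 1123 against 1040 and 924), and its response difference did not pass the test (limma adjusted p = 0.19).

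**Figure D4:**
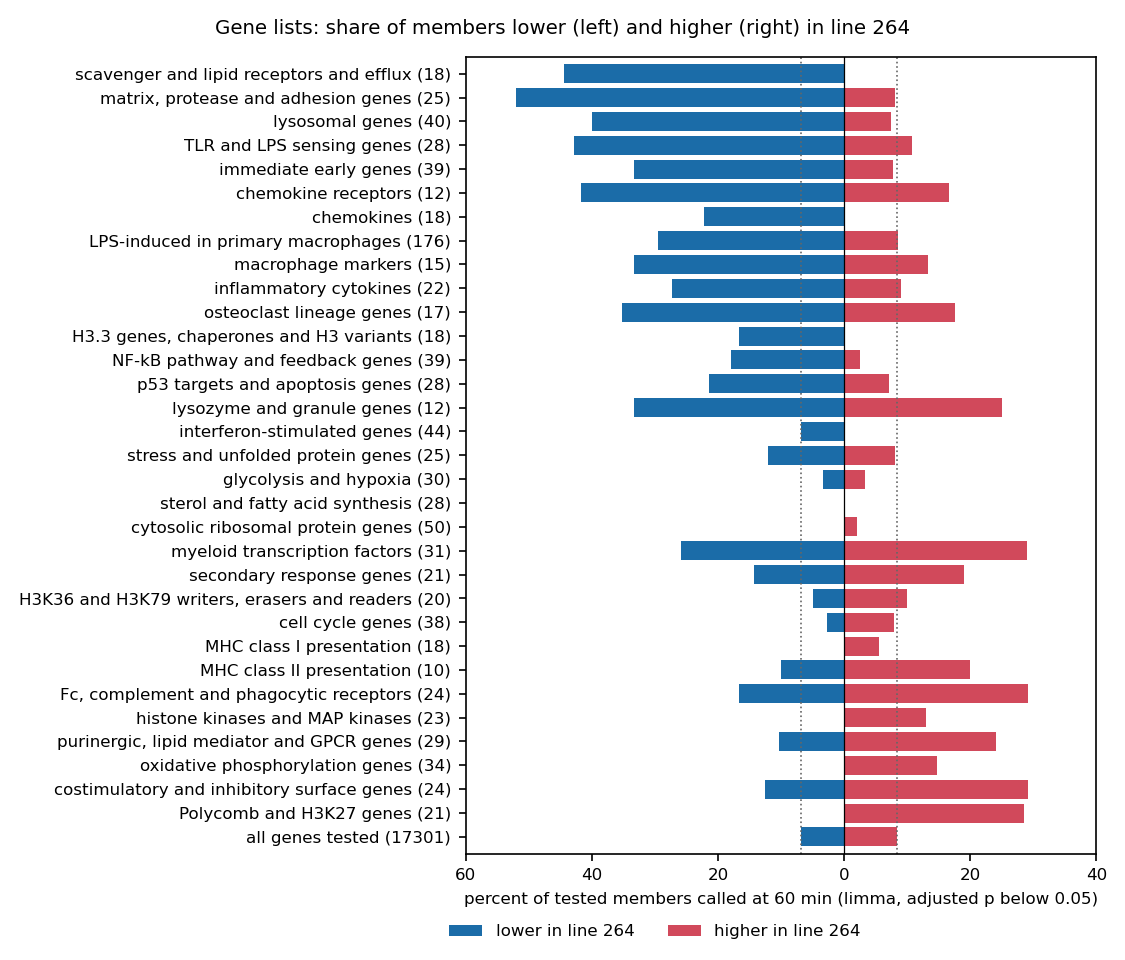
Share of the tested members of each gene list (number tested in brackets) that was lower (bars to the left) or higher (bars to the right) in line 264 at 60 min, in percent, with dotted lines at the 6.80% and 8.46% of all genes tested. Scavenger, matrix, sensing and lysosomal lists lean left, and the Polycomb and costimulatory lists have more calls on the right.

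A last pattern, chosen after its values were seen, followed chromosomes rather than gene function. Among genes whose mean reached 50 normalized reads, the median log2 difference between line 264 and RAW264.7 was 0.41 over the 637 genes of chromosome 1 and 0.54 over the 402 genes of chromosome 19. The medians of the other 17 autosomes lay between -0.10 and 0.02, and that of the X chromosome was -0.15. The same medians were found in libraries of the other times: 0.43 and 0.51 unstimulated, and 0.43 and 0.52 at 120 min. The difference was above 0 for 81.9% of the genes of chromosome 1 and 83.8% of those of chromosome 19. The shift ran along both chromosomes. In windows of 10 Mb with at least 20 genes, medians were 0.17 to 0.59 in 14 windows of chromosome 1 and 0.41 to 0.60 in 6 windows of chromosome 19, against -0.34 to 0.27 in 184 windows elsewhere.

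These 2 chromosomes carried 9.27% of the tested genes with a known position and 30.3% of the higher calls, 426 of 1407, of which 272 were less than 2-fold. Elsewhere 981 genes were higher and 1098 lower, so the excess of higher over lower calls was not found outside them. Line 3205 set against the same RAW264.7 libraries had medians of 0.40 on chromosome 1, -0.02 on chromosome 19 and 0.56 on chromosome 15. Its shift on chromosome 1 did not cover the whole of it: window medians were 0.40 to 0.63 for windows that start at up to 150 Mb and -0.15 to 0.01 for those from 160 to 190 Mb, where line 264 had 0.24 to 0.50. H3f3a lies on chromosome 1 and was lower in spite of its position. All 5 higher genes among 34 for oxidative phosphorylation lie on these chromosomes (1 to 3 were higher without 1 library), with Cox5b the highest at a log2 difference of 0.79 (limma adjusted p = 0.0031), and so do Chuk and Rps6ka4. Kdm2a and Smyd2, the 2 higher genes of the H3K36 and H3K79 list, also lie on chromosomes 19 and 1. Rpl7, the 1 higher cytosolic ribosomal protein gene, lies on chromosome 1. DNA was not measured in the data used here, and the cause of the shift was not tested.

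**Figure D5:**
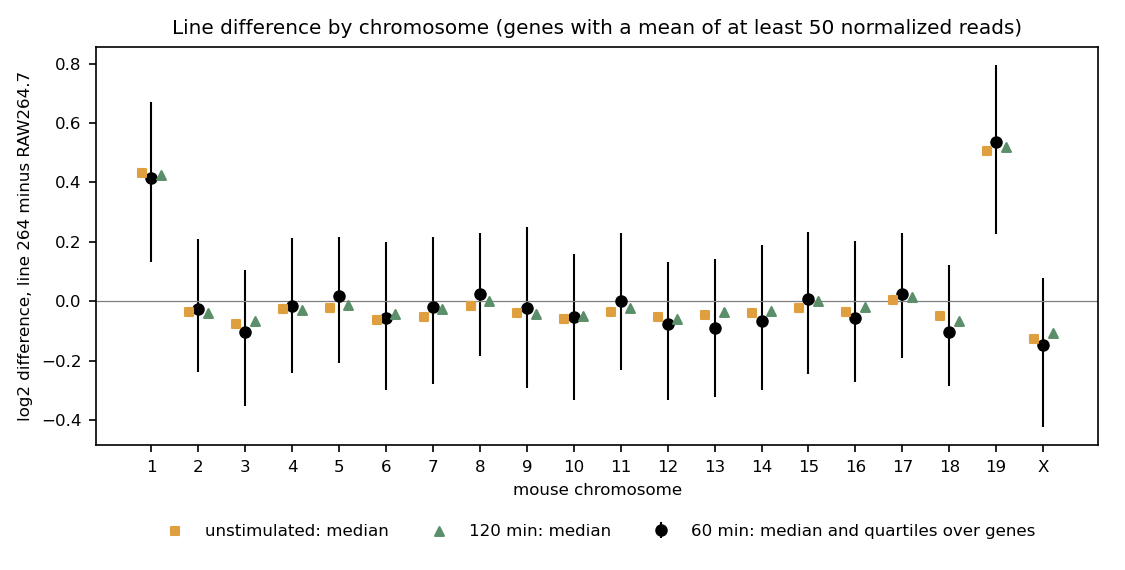
Median log2 difference between line 264 and RAW264.7 over genes of each chromosome whose mean reached 50 normalized reads, at 60 min with quartiles over genes (black) and unstimulated or at 120 min (coloured). Chromosomes 1 and 19 stand at 0.41 and 0.54 at 60 min, and the other autosomes and X between -0.15 and 0.02.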

How the data were processed

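RNA of 3 lines (RAW264.7, 264 and 3205) was sequenced at 0, 60 and 120 min of LPS, 2 libraries per group. Per the submitters' processing notes, the tools were Trim Galore 0.5.0, STAR 2.4.2, featureCounts (Subread 1.4.6), DESeq2 and R 3.4.0, with build mm10. The deposited signal values are reads per gene divided by 1 size factor per library: 100% lay within 0.1 read of a whole number once the factor was removed. The authors deposited log2 fold changes and p-values for their own comparisons in separate tables. The 60 min table gives 12 libraries of 13.1 to 53.9 M reads. Depth limits genes of few reads, and intervals cover counting error only (95%, exact).

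Here limma-trend (limma 3.58.1, R 4.3.3) was fitted to log2 of the value plus 1 over all 12 libraries, 1 mean per group, for genes with a mean of at least 1. Values after ± are limma standard errors, and p-values were adjusted by Benjamini-Hochberg over all genes tested. The 120 min table was fitted separately. The fit was also run on simulated counts with the same spread for every gene and no replicate effect. That run therefore cannot show how the fit behaves where libraries share replicate deviations. Folds are 2 to the limma difference, or come from reads where a group had at most 3. Coordinates and overlaps are from RefSeq (GRCm38.p6, which is mm10).

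The main fits, with their standard errors and p-values, did not pair libraries. Only the replicate block settings treated the replicate numbers in the labels as pairing libraries. The replicate 1 minus 2 deviations of groups correlated at r = 0.16 to 0.56 over all 15 pairs of groups. Mitochondrial reads were 0.221 to 0.615% in replicate 1 and 1.16 to 1.70% in replicate 2 libraries. Named genes were the 12 largest differences per direction among calls whose higher group averaged 50 or more and whose ranges lay apart, predicted genes aside, a panel of LPS genes, up to 4 members per list and direction by smallest p, and the 5 largest per direction among LPS genes of primary macrophages. The genes of the response test and those with opposite calls at another time were also named, and Tlr4, Csf1r and Med12l were named after their values were seen. The comparison, lists and panel were chosen with earlier results of these data known. Alternatives were edgeR 4.0.16 and DESeq2 1.42.0 on recovered reads, TMM scaling, other pseudocounts, no trend, no filter, only the groups compared, the replicate block and leaving out each library.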

Additional observations from a re-analysis of the deposited data

Results flagged for a closer look

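The response to 60 min of LPS differed between the lines, by the test of the difference itself, for 3 genes (limma adjusted p = 0.035 for each). The response of line 264 minus that of RAW264.7, on the log2 scale, was 2.68 for Txnip, -3.33 for Rasgef1b and -2.10 for Bhlhe40. Without any 1 of the 8 libraries involved, at most 1 gene was called.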

How the results depend on the processing

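Of the named genes' values, none reversed under any alternative. Under settings other than leaving out a library, 1810 kept their side of the threshold, 48 lost a call and 10 gained one; without 1 library the counts were 594, 152 and 2. For the 60 min comparison (1463 higher, 1177 lower), the replicate block gave 2475 and 2173, edgeR with replicate block 2373 and 1901, and leaving out 1 library 807 to 896 and 591 to 719. For the unstimulated comparison (1317 and 963), the block gave 2201 and 1836, edgeR with the block 2174 and 1865, only the groups compared 817 and 618, and leaving out 1 library 719 to 975 and 480 to 730. At 120 min (1279 and 1069) the block gave 2351 and 2064, edgeR with the block 2246 and 1856, and leaving out 1 library 657 to 811 and 512 to 764. The response difference (3 genes) gave 1 without trend, 0 with no filter (limma), 6 with a pseudocount of 5, 22 with the block, 25 with edgeR and the block, 25 with DESeq2, and 0 to 1 without 1 library. The chromosome 19 median was 0.57 with edgeR, 0.58 with edgeR and the replicate block, 0.57 with TMM, and 0.50 to 0.55 without 1 library; that of chromosome 1 was 0.39 to 0.44 without 1 library. Outside chromosomes 1 and 19, a count added after seeing the data, 981 genes were higher and 1098 lower. Where a library was left out, the lone library was assumed to vary like the other groups. The cause of these shifts was not tested. With 2 libraries per group and unequal depth, small differences and genes of few reads are the least certain.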
